A study of Mus musculus with 6 samples.

Results

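H3K9me2 was compared between mouse embryonic stem cells (ESCs) that lack Dicer and ESCs of the same kind that had lost Dnmt1 too. The 2 ChIP-seq libraries were read in tiles of 2 kb, and all 1236182 tiles on the 19 autosomes were taken, of 1327469 tiles in the whole genome. The first group, Dicer KO, carries a constitutive deletion of Dicer made by CRISPR in an ESC line with a conditional (loxP-flanked) Dnmt1 allele, and its label gives the genotype Dicer -/-. The second group, Dicer KO/Dnmt1 cKO, is labelled Dicer/Dnmt1 -/-, and in the study's methods a Cre induced by tamoxifen removes Dnmt1. Both groups therefore lack Dicer, and both are labelled as ESCs of the background strain E14, whereas the methods describe the line with conditional Dnmt1 as C57BL/6. The Dicer KO line was obtained from single-cell colonies, so it stands for a clone, and the day after Dnmt1 deletion on which these libraries were made is not given in the sources used here. Each mark had 1 library per genotype, so no difference between genotypes could be tested, and the intervals below cover counting error only. Reads were not counted by molecule, so copies made by PCR can make these intervals too narrow.

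H3K9me2 is a repressive mark laid down mainly by the enzymes G9a (Ehmt2) and GLP (Ehmt1), and it spreads over broad domains that are poor in active genes and often lie at the nuclear lamina. DNMT1 keeps CpG methylation through replication and is brought to newly made DNA by UHRF1, a protein that also binds methylated H3K9. Dicer cuts the precursors of small RNAs that Argonaute proteins use. CpG islands, the CpG-rich stretches at many promoters, normally carry little H3K9me2.

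In brief, the genome-wide pattern of H3K9me2 was largely alike in both libraries but flatter upon Dnmt1 deletion. H3K9me2 was higher in the Dicer KO/Dnmt1 cKO where there was least of it, over gene-rich and CpG-rich DNA, and slightly lower in H3K9me2-rich domains, very long genes and DNA far from genes. At transcription starts with 80 or more CpG in their tile the log2 change was 0.25 (95% counting interval 0.23 to 0.28). A log2 change is throughout the log2 ratio of the share of autosomal reads in the Dicer KO/Dnmt1 cKO to that in the Dicer KO. A relative level is the number of reads per covered tile divided by the mean over all covered autosomal tiles of that library. Higher and lower refer to these shares, which cannot show a gain or loss over the whole genome. Whether the libraries differed in background was not tested.

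The Dicer KO library held 16323401 reads on autosomes and the Dicer KO/Dnmt1 cKO library 19891895. At least 1 read of any of the 6 libraries of the series (3 marks, 2 genotypes) fell in 1180276 autosomal tiles, called covered, in which the median was 14 and 17 reads of H3K9me2. A small set of tiles stood apart. The 0.1% of tiles with most H3K9me2 reads held 1.36% of the reads of the Dicer KO and 1.16% of those of the Dicer KO/Dnmt1 cKO. Of these reads, 100496 and 96437 fell in 1 tile, chr2:98506001-98508000, which overlaps the annotated gene Gm10800. Sums that hold this tile are given with and without the 0.1% of tiles.

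DNA of 4 chosen genes and of the most extreme tiles is shown before the values, as reference sequence of NCBIM37, 5′ to 3′, with each CpG in capitals. The first set is the 250 bases before 4 annotated starts, chosen after their values were seen to show CpG-rich starts of genes with higher and CpG-poor starts of genes with lower H3K9me2, not as a rank of the changes: Eif2c2 (Argonaute 2, the slicing Argonaute of RNAi) and Dnmt3b (a de novo DNA methyltransferase) had more H3K9me2 upon Dnmt1 deletion, and Il1rl1 (the receptor of interleukin 33) and Cd53 (a tetraspanin of leukocytes) had less.
Eif2c2, chr15:73015378-73015627, minus strand: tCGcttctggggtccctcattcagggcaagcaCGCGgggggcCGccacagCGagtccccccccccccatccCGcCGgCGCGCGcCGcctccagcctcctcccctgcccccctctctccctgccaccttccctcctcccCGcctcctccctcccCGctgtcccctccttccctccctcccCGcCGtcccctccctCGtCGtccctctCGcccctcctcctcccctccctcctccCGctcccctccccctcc
Dnmt3b, chr2:153474936-153475185, plus strand: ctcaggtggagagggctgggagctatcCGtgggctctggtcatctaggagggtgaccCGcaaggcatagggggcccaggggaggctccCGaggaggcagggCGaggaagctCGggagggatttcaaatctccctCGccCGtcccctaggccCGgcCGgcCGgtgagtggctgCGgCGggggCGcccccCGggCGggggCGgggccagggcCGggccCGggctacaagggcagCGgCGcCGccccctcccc
Il1rl1, chr1:40486165-40486414, plus strand: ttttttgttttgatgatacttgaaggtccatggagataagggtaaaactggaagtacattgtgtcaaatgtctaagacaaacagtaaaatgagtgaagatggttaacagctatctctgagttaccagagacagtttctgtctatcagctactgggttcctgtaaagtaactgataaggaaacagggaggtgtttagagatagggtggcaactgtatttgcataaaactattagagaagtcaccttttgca
Cd53, chr3:106593068-106593317, minus strand: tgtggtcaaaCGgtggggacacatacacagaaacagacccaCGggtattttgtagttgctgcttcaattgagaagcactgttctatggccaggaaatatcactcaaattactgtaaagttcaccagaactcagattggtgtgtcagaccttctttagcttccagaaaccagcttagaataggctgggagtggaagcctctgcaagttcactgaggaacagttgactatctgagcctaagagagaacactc

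CG was searched on these letters, and it reads alike on both strands. The stretch held 19 CpG for Eif2c2, 21 for Dnmt3b, 0 for Il1rl1 and 2 for Cd53. The median over all 21418 autosomal protein-coding genes was 9 CpG in 250 bases, and 47.6% of them held at least 10. The 2 kb tile with the start of Eif2c2 held 196 CpG and only 2 H3K9me2 reads for the Dicer KO library, with 3 upon Dnmt1 deletion. For Dnmt3b these were 126 CpG, 3 reads and 4 reads. The start tile of Cd53 had 5 CpG, with 16 and 19 reads, and that of Il1rl1 had 13 CpG, with 12 and 23 reads. The start tile of Il1rl1 thus went the other way from the gene as a whole. The start tiles of the CpG-rich pair were thus nearly without H3K9me2 in either library, and the reads that differed over these genes lay in their bodies. Dnmt3b (log2 change 0.43) was not among the 10 highest genes named below. Base composition did not separate the ranked genes cleanly. GC content ran from 40.9% (Tmem67) to 50.0% (Eif2c2) over the 10 highest and from 35.15% (Gm11168) to 48.8% (Slc13a5) over the 10 lowest.

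The second set is the central 200 bases of the single tiles with the highest and the lowest change, among 11803 tiles that held at least 60 reads, no exon and no unknown base.
Highest, chr14:122720901-122721100, plus strand: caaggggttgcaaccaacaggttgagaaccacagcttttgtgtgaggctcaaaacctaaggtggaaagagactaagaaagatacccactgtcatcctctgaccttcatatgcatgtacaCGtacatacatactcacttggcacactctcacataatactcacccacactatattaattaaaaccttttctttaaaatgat
Second highest, chr13:42744901-42745100, plus strand: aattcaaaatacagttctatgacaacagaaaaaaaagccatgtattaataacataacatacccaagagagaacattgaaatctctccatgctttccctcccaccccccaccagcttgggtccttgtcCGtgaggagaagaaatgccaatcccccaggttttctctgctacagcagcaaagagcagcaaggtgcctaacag
Lowest, chr11:12098901-12099100, plus strand: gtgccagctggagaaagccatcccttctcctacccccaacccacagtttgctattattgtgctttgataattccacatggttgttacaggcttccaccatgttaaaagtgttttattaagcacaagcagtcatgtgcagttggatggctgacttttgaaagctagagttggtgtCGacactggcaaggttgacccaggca
Second lowest, chr14:125016901-125017100, plus strand: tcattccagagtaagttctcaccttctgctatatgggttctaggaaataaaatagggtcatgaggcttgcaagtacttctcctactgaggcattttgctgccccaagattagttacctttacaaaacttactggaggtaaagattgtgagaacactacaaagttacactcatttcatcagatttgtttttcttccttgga

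The highest tile lies in an intron of Clybl (a mitochondrial enzyme), with 13 reads in the Dicer KO against 50 in the Dicer KO/Dnmt1 cKO, a log2 change of 1.66 (95% counting interval 0.76 to 2.66). The second, 29.99 kb from Phactr1, had 13 and 49 reads, a log2 change of 1.63. The lowest, 36.6 kb from Cobl, had 49 and 20 reads, a log2 change of −1.58 (−2.41 to −0.80). The tile in an intron of Fgf14 had 45 and 19 reads, a log2 change of −1.53. These 4 tiles held 11 to 19 CpG each, fewer than the CpG-rich tiles described below. They are the ends of a large number of noisy values. Of 920159 tiles whose mean was 10 reads or more, 4.03% were at least 2-fold higher and 2.91% at least 2-fold lower in the Dicer KO/Dnmt1 cKO.

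Broad patterns were read in non-overlapping windows of 100 kb, which pool a median of 703 reads in the Dicer KO against 852 in the Dicer KO/Dnmt1 cKO. Among 23667 windows with at least 80% of tiles covered, the change had an SD of 0.13, where counting error alone gives 0.079. Neighbouring windows shared their change in part (Pearson correlation 0.51 across adjacent windows, which share libraries and base composition). At a fold of 1.2, 1263 windows (5.34%) were higher in the Dicer KO/Dnmt1 cKO and 94 (0.397%) were lower. The total of 5.73% depended on the window, with 9.85% in windows of 50 kb and 3.58% in windows of 200 kb, and was 3.60% after a correction for GC content. For the other marks in the same windows, 6.20% differed by this fold for H3K27me3, and for H3K9me3 165 were higher and 191 lower.

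The spread of the levels was narrower upon Dnmt1 deletion. With the 5% of windows at each end left out, levels ran from 0.500 to 1.37 in the Dicer KO, and from 0.570 to 1.31 in the Dicer KO/Dnmt1 cKO. Under a level of 0.5 there were 1183 windows in the Dicer KO library and 678 upon Dnmt1 deletion. Above a level of 1.4 there were 833 and 391 windows. The order of the windows was largely kept (Spearman correlation across windows 0.95). The spread of H3K27me3 was also narrower, from an SD of 0.74 to 0.67 on the log2 scale, against 0.49 to 0.43 for H3K9me2, while that of H3K9me3 was 0.39 and 0.40.

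Ranked by the mean level of both libraries, the change went down step by step from the poorest to the richest windows. In the decile of windows with least H3K9me2 the level was 0.472 in the Dicer KO against 0.534 in the Dicer KO/Dnmt1 cKO, a log2 change of 0.18 (0.17 to 0.18). Of these 2367 windows 2007 were higher in the Dicer KO/Dnmt1 cKO and 686 (29.0%) by at least 1.2-fold, against 5.34% of all windows. The second decile differed by 0.12, the third by 0.058, the fifth by less than its counting error, and the eighth by −0.033. In the decile with most H3K9me2 the log2 change was −0.076 (−0.078 to −0.073), or −0.064 without the 0.1% of tiles with most reads, and 1 window of 2367 was at least 1.2-fold higher. The lowest 3 deciles were higher on each of the 19 autosomes and the highest 3 lower on each of them. H3K27me3 differed by 0.037 in the poorest decile and −0.0091 in the richest, and H3K9me3 by −0.0016 and 0.028.

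**Figure D1:**
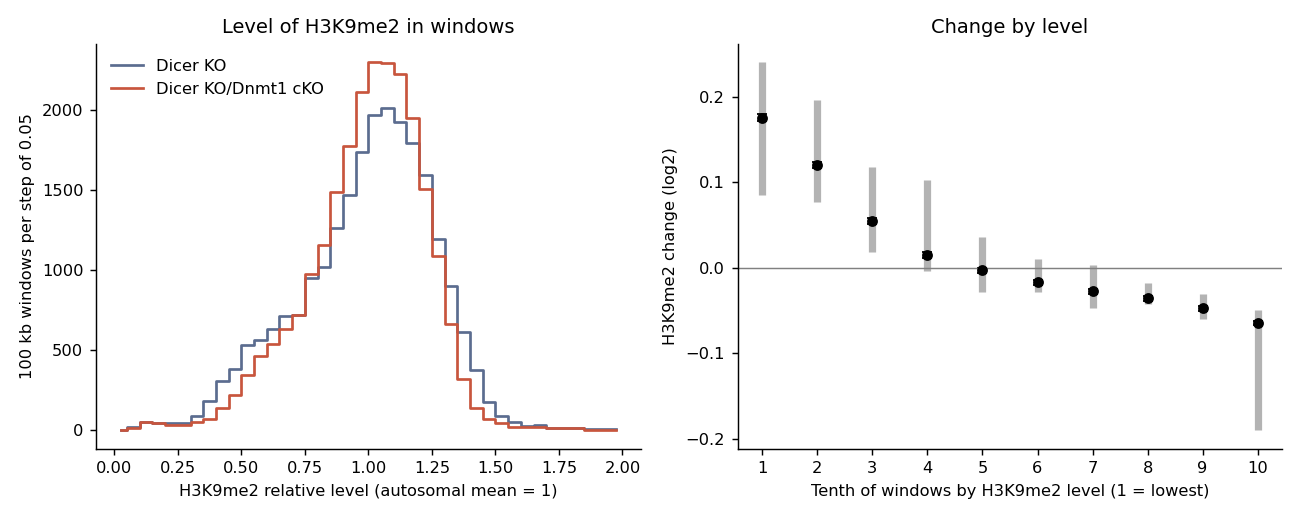
Left, the number of 100 kb windows in each step of 0.05 of H3K9me2 relative level, in the 2 libraries (1 per genotype, the axis ends at a level of 2). Right, the log2 change in deciles of windows ranked by mean H3K9me2 level, without the 0.1% of tiles with most reads, with 95% counting intervals as black bars and the range of the 19 autosomes over all covered tiles in grey. The Dicer KO/Dnmt1 cKO curve is narrower, and the change goes from 0.18 in the poorest decile to −0.064 in the richest.

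Domains were defined as runs of at least 5 adjacent windows among the 25% with most H3K9me2 (level above 1.16) or the 25% with least (level below 0.852). The 304 high domains covered 234.4 Mb, with a median length of 600 kb, and the 296 low domains covered 265.9 Mb, with a median of 700 kb. High domains were poor in genes, with 2.30 protein-coding starts per Mb, and low domains rich, with 23.6 per Mb. In high domains 2164344 reads of the Dicer KO and 2524659 of the Dicer KO/Dnmt1 cKO gave a log2 change of −0.063 (−0.066 to −0.060), lower on 19 of 19 autosomes (−0.078 on chromosome 5 to −0.049 on chromosome 14). In low domains 1027092 and 1403694 reads gave a log2 change of 0.17 (0.16 to 0.17), higher on 19 of 19 autosomes (0.042 on chromosome 13 to 0.23 on chromosome 4). The difference, high minus low, was −0.23 (−0.23 to −0.22) on the log2 scale. By single domain, 290 of 304 high domains were lower and 261 of 296 low domains were higher. The rest of the autosomes differed by −0.0035.

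The 3 longest high domains lay on chromosome 14, of which 31.6% of covered tiles were in high domains. The domain chr14:112800001-118500000, with Gpc5 and Gpc6 (glypicans, proteoglycans of the cell surface), had a level of 1.55 in the Dicer KO against 1.49 in the Dicer KO/Dnmt1 cKO, a log2 change of −0.058 (−0.074 to −0.042). The next, chr14:99600001-103600000, with Klf5 and Klf12 (Krüppel-like transcription factors), had levels of 1.66 and 1.64 and a log2 change of −0.016 (−0.034 to 0.0021). Chromosome 14 also held 400 of the 1237 tiles with most H3K9me2 reads. Both domains were rich in the other marks too, and the cause of their high reads was not tested. The first had H3K27me3 levels of 1.39 and 1.42 and an H3K9me3 level of 1.48 upon Dnmt1 deletion. The second had 1.37 and 1.39 for H3K27me3 and 1.41 and 1.45 for H3K9me3. All high domains together had 1.43 and 1.41 for H3K27me3 and 1.17 and 1.18 for H3K9me3. Set beside them, these 2 domains were thus raised in H3K9me3 but not in H3K27me3. Among low domains, chr5:121600001-125100000, with 82 protein-coding starts such as Ptpn11 (a phosphatase of growth factor signalling) and Aldh2 (an aldehyde dehydrogenase), had levels of 0.515 and 0.608 and a log2 change of 0.24 (0.21 to 0.27). The low domain chr11:100100001-103300000 held 116 starts, among them Krt17 (a keratin) and Jup (plakoglobin of cell junctions), with levels of 0.526 and 0.616 and a log2 change of 0.23 (0.19 to 0.26).

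The longest low domain was poor in reads of every mark. It ran over 20600 kb of the distal part of chromosome 17 (chr17:74600001-95200000). Its level without and with Dnmt1 deletion was 0.507 and 0.514 in the H3K9me2 libraries, 0.458 and 0.463 in those of H3K27me3, with 0.496 and 0.501 in those of H3K9me3. On the rest of chromosome 17 the H3K9me2 level was 0.931 and 0.938. This domain differed by only 0.018 (0.0042 to 0.033), and the cause of its low reads was not tested. In all, 26 low domains, 43.0 Mb together, were under a level of 0.65 in all 6 libraries. Without them, high minus low domains differed by −0.24, a setting chosen after the data were seen.

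Across the autosomes the changes were small. Over all covered tiles they ran from −0.022 (−0.026 to −0.019) on chromosome 2 to 0.037 (0.033 to 0.041) on chromosome 11, a difference of 0.059 (0.054 to 0.065). The place of chromosome 2 rested on the tiles with most reads: without the 0.1% of tiles it differed by 0.0046, and chromosome 14 was lowest with −0.017. Chromosome 11 had the highest GC content (43.8%) and 22.2% of its tiles in low domains. Chromosome 17 had more of its tiles in low domains, 36.9%, but differed by only 0.012. By size of change, chromosome 19 (0.022) and chromosome 4 (0.018) came next to chromosome 11. 146 of 1488 windows on chromosome 4 (9.81%) and 143 of 1182 on chromosome 11 (12.1%) were at least 1.2-fold higher, against 5.34% of all windows and 2.18% on chromosome 18. Across the 19 autosomes the change went with GC content (Pearson 0.69, Spearman 0.67) and with protein-coding starts per Mb (Pearson 0.60, Spearman 0.69), given as a description since all points share the same 2 libraries.

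**Figure D2:**
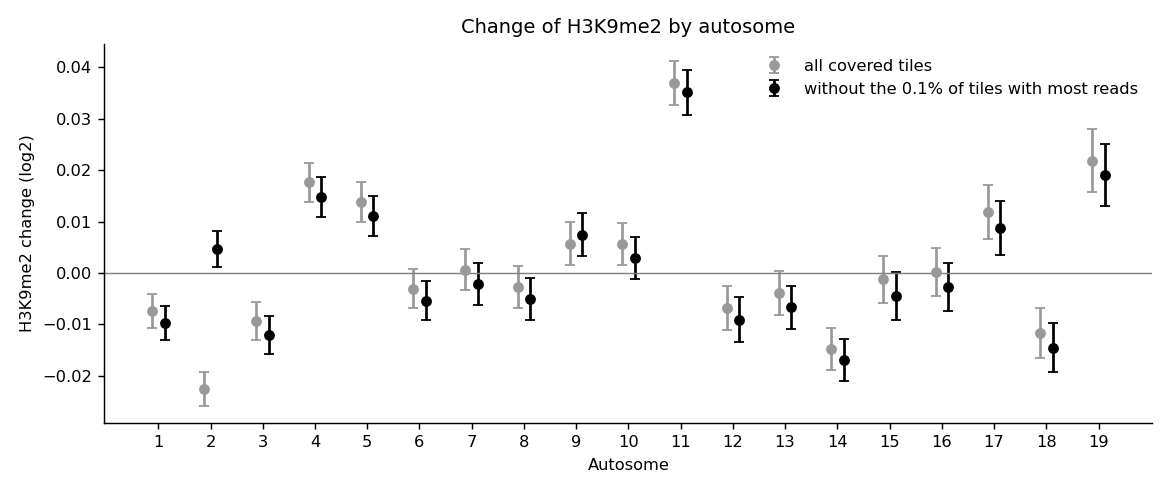
The log2 change of H3K9me2 on each autosome with its 95% counting interval, over all covered tiles (grey) and without the 0.1% of tiles with most reads (black). Chromosome 11 is highest in both, and chromosome 2 moves from −0.022 to 0.0046.

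Mouse autosomes are telocentric, so position was read from the centromeric end in 10 equal parts of each chromosome. The most proximal part differed by −0.0096 (−0.013 to −0.0062) and the most distal by 0.022 (0.019 to 0.025), a difference of 0.032 (0.027 to 0.036). The distal part was higher than the proximal one on 15 of 19 autosomes. The distal end of chromosome 4 differed by 0.10 (0.090 to 0.12) and its proximal end by −0.017. Chromosome 19 was turned round, with 0.19 (0.16 to 0.22) at its proximal end, where GC content was 48.0% and the level only 0.566, and 0.021 at its distal end. The distal parts held more GC (44.3% against 41.0%) and more low domains (18.6% against 10.1% of tiles), and after correction for GC content the difference was 0.0047 (0.00017 to 0.0093). Between the ends, the other parts differed by −0.026 to 0.012, and the sixth (−0.026), which holds the tile on chromosome 2 described above, differed by −0.0081 without the 0.1% of tiles.

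H3K9me2 was higher upon Dnmt1 deletion in and next to genes and lower away from them. Protein-coding gene bodies, 37.9% of covered autosomal tiles, had a level of 0.946 in the Dicer KO against 0.972 in the Dicer KO/Dnmt1 cKO, a log2 change of 0.039 (0.038 to 0.041), higher on 19 of 19 autosomes. Intergenic tiles had levels of 1.04 and 1.02 and a log2 change of −0.023 (−0.025 to −0.022), lower on 19 of 19. The difference was 0.063 (0.061 to 0.065). Within intergenic DNA the change went from 0.025 within 10 kb of a gene to −0.024 at 10 to 100 kb and −0.052 (−0.054 to −0.050) at over 100 kb, where the GC content was 38.9%. The other marks differed between these classes as well. Over gene bodies the change was 0.036 for H3K27me3 and 0.030 for H3K9me3, and over intergenic tiles −0.012 and −0.021. At over 100 kb from a gene H3K9me3 differed by −0.048, nearly as much as H3K9me2, and H3K27me3 by −0.0097. The same order was seen in windows by their number of protein-coding starts. The 13388 windows with 0 starts differed by −0.031, and 1.27% of them were at least 1.2-fold higher. The 740 windows with 5 or more starts differed by 0.11 (0.10 to 0.11), and 25.7% of them were at least 1.2-fold higher and 0 lower. H3K27me3 differed by 0.0054 and −0.031 in these 2 sets of windows, in the same order, and H3K9me3 by −0.013 and −0.0030.

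Tiles within 1 kb of a protein-coding start depended on the tiles with most reads. Over all such tiles the log2 change was −0.015 (−0.021 to −0.0098), yet it was above 0 on 17 of 19 autosomes, and without the 0.1% of tiles it was 0.091 (0.085 to 0.098). The level differed with CpG content. Start tiles with under 20 CpG had a level of 0.944 in the Dicer KO against 0.953 in the Dicer KO/Dnmt1 cKO, a log2 change of 0.014 (0.0044 to 0.023). Those with 20 to 39 CpG had levels of 1.55 and 1.44 and a log2 change of −0.11, which turned to 0.11 without the 0.1% of tiles. Those with 40 to 79 CpG differed by 0.17 (0.15 to 0.19). Those with 80 or more CpG, at which H3K9me2 was scarcest, had 0.226 and 0.270, a log2 change of 0.25 (0.23 to 0.28), higher on 19 of 19 autosomes. There H3K27me3, the Polycomb mark of many CpG islands, differed by −0.51 and H3K9me3 by −0.045. Around the 6729 starts whose tile held 80 or more CpG, the change was 0.26 (0.23 to 0.28) at the start, 0.11 (0.10 to 0.13) 10 kb upstream and 0.13 (0.12 to 0.15) 10 kb downstream. It was still 0.086 at 50 kb upstream, so these starts lie in broad regions that were higher, with a narrow peak of change at the dip of the level. Around the 4642 starts with under 20 CpG the change was −0.0041 (−0.019 to 0.011) at the start and −0.021 at 10 kb upstream.

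**Figure D3:**
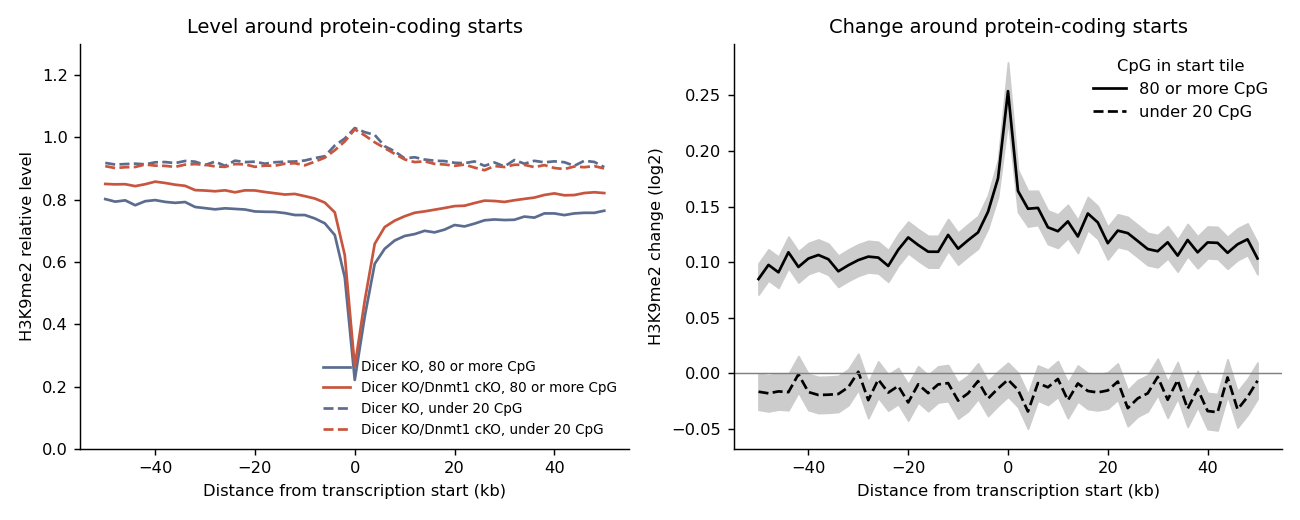
Relative level of H3K9me2 (left) and its log2 change (right, 95% counting interval in grey) by distance from protein-coding transcription starts in steps of 2 kb, without the 0.1% of tiles with most reads. Negative distances lie upstream. Solid lines are the 6729 starts with 80 or more CpG in their tile and dashed lines the 4642 starts with under 20. The level dips and the change peaks at CpG-rich starts, and neither is seen at CpG-poor ones.

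CpG content separated tiles in general. The log2 change was −0.035 in tiles with 0 to 4 CpG (level 1.11 in the Dicer KO), −0.0082 at 10 to 19, 0.044 at 20 to 39, 0.13 at 40 to 79, 0.23 at 80 up to 120 and 0.28 (0.24 to 0.33) in the 2927 tiles with 120 or more (level 0.191). H3K27me3 differed by −0.64 and H3K9me3 by −0.11 in the last. By GC content alone the decile of tiles with highest GC differed by 0.13 (0.12 to 0.13) and the decile with lowest GC by −0.0091 (−0.012 to −0.0061), a difference of 0.14 (0.13 to 0.14). Across windows the change went with GC content for H3K9me2 (Pearson 0.48, Spearman 0.43) and for H3K9me3 (0.42 and 0.45), and hardly for H3K27me3 (−0.0044 and 0.027). GC content and level both went with the change when the other was held. In the quintile of windows with highest GC, the change went from 0.22 at the lowest levels to −0.036 at the highest. In the quintile with lowest GC it went from 0.0020 to −0.12, and the latter was −0.045 without the 0.1% of tiles. The part of base composition in these changes was not tested.

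**Figure D4:**
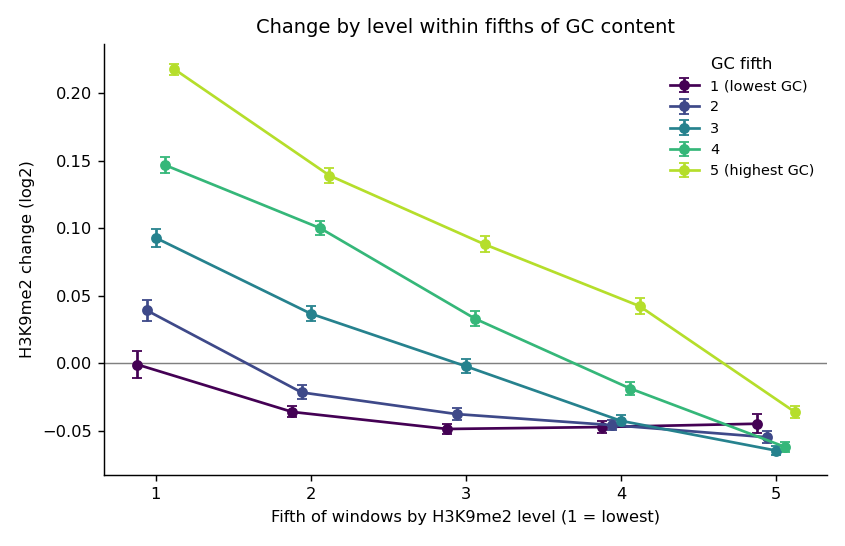
The log2 change of H3K9me2 in 100 kb windows by quintile of mean H3K9me2 level, with 1 line for each quintile of window GC content and 95% counting intervals, without the 0.1% of tiles with most reads. Within each GC quintile the change is highest in the windows with least H3K9me2, and the line of highest GC runs from 0.22 to −0.036.

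Of 21418 autosomal protein-coding genes, 9453 held at least 200 H3K9me2 reads over both libraries. Their median log2 change was 0.094 (SD 0.18 across genes), and 6647 of them (70.3%) were higher in the Dicer KO/Dnmt1 cKO. The counting interval lay above 0 for 2112 genes and below 0 for 418. At a fold of 1.5, 94 genes (0.994%) were higher and 0 (0%) were lower.

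The change differed by gene length, with genes of 10 to 300 kb higher and the very long ones lower, while the direction for genes under 10 kb depended on a few tiles. Genes of 10 to 30 kb went from 508219 to 678094 reads (level 0.687 to 0.752), a log2 change of 0.13 (0.13 to 0.14). Genes of 30 to 100 kb differed by 0.10 and those of 100 to 300 kb by 0.046 (0.043 to 0.049), and all 3 classes were higher on 19 of 19 autosomes. The 503 genes of at least 300 kb had a level of 1.14 in the Dicer KO against 1.11 in the Dicer KO/Dnmt1 cKO, a log2 change of −0.028 (−0.031 to −0.026), and were lower on 19 of 19 autosomes. Of them 162 were higher, against 3593 of 4643 tested genes of 30 to 100 kb. The class under 10 kb summed to −0.082 (−0.089 to −0.075), but 1 annotated gene, Gm10800, supplied 100496 of its 304468 reads in the Dicer KO. Of its genes only 76 reached 200 reads, which takes a high level in so short a gene, and 26 of these were higher (median −0.12, 1 interval above 0 and 12 below). Without the 0.1% of tiles the class differed by 0.087 (0.078 to 0.097), and the difference between genes of at least 300 kb and those under 10 kb turned from 0.054 (0.046 to 0.061) to −0.12 (−0.13 to −0.11). Along genes of at least 40 kb the change was even, between 0.019 and 0.034 in each of 10 equal parts from start to end. Length goes with GC content and, from 10 kb up, with the H3K9me2 level, and the part of each was not tested. In the quintile of tiles with second lowest GC, genes of 30 to 100 kb differed by 0.073 and genes of at least 300 kb by −0.035.

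Among gene families, Nduf, Rpl and Rps, Psm and Zfp genes were higher and the families of olfactory and vomeronasal receptors lower. All protein-coding genes together differed by 0.034, those of 10 to 30 kb by 0.13 and those of 30 to 100 kb by 0.10. The intervals below for Rpl and Rps and for Psm held both length values, and that for Zfp held 0.10. The interval for Nduf lay above both, and the Slc value was near that of all protein-coding genes. The 41 Nduf genes (subunits and assembly factors of respiratory complex I) went from 2356 to 3370 reads, a level of 0.570 to 0.669 and a log2 change of 0.23 (0.15 to 0.31). The 134 Rpl and Rps entries (ribosomal proteins) went from 1305 to 1777 reads, a log2 change of 0.16 (0.056 to 0.26). Symbols of pseudogenes annotated as protein-coding, such as Rpl13-ps3, also match this symbol start. The 51 Psm genes (the proteasome) differed by 0.11 (0.043 to 0.17) and the 362 Zfp genes (zinc finger proteins) by 0.089 (0.073 to 0.11). On the other side, the 1106 Olfr genes (olfactory receptors) went from 23342 to 27473 reads, a level of 1.18 to 1.14 and a log2 change of −0.050 (−0.075 to −0.025). Vmn1r and Vmn2r genes (vomeronasal receptors) differed by −0.077 (−0.14 to −0.0091) and −0.041 (−0.071 to −0.012). Ugt genes (glucuronosyltransferases) differed by −0.092 (−0.16 to −0.028) and Kcn genes (potassium channels) by −0.042 (−0.056 to −0.028). The GC content of their tiles alone gave −0.021 to 0.029 for these 9 families. Slc genes (solute carriers) differed by 0.030 (0.019 to 0.041) and Mir genes by 0.10 (0.037 to 0.16). For Krtap, Krt, Hox, clustered Pcdh, Defb, Serpin, Cyp, Hist and Sno genes the interval held 0. Receptor and Ugt genes come in near-identical copies, so reads with low mapping quality could be lost there and their values are uncertain. By gene type, miRNA genes differed by 0.057 (0.024 to 0.089), lincRNA genes by 0.021, pseudogenes by −0.024 (−0.039 to −0.010) and immunoglobulin V genes by −0.095 (−0.16 to −0.034).

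**Figure D5:**
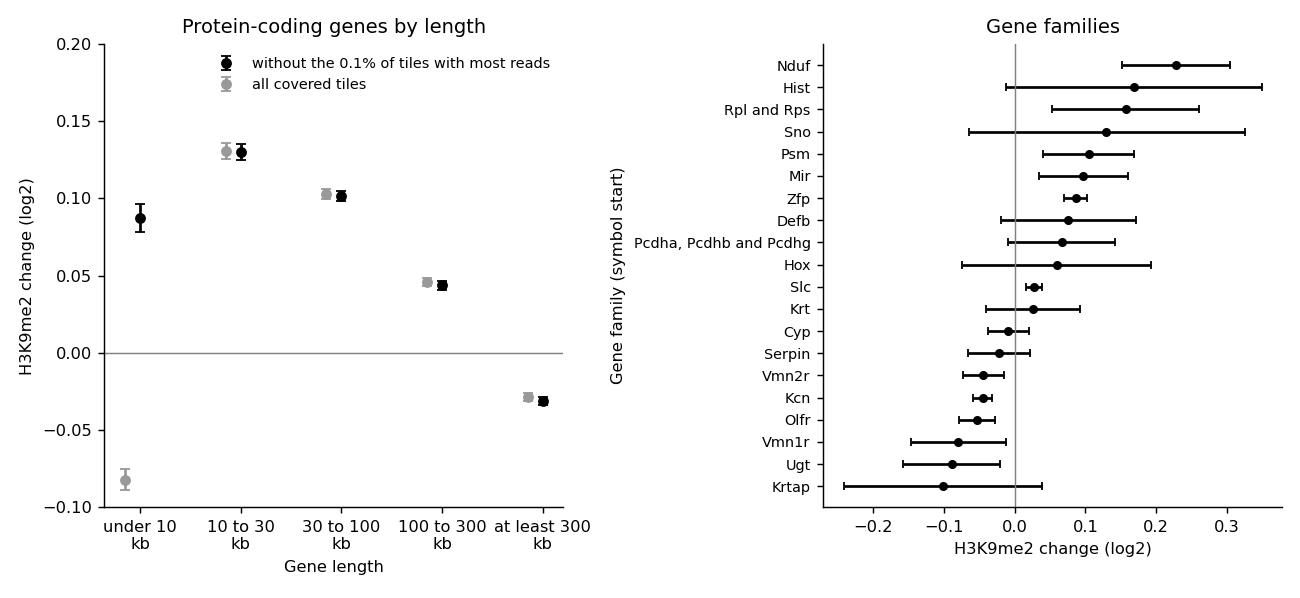
The log2 change of H3K9me2, with 95% counting intervals, for protein-coding genes by length (left, over all covered tiles in grey and without the 0.1% of tiles with most reads in black) and for gene families by symbol start (right, without these tiles). Genes under 10 kb move from −0.082 to 0.087 when the tiles are left out, and genes of at least 300 kb stay below 0.

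The genes with the largest change were named by rank among genes with at least 500 reads, so their values are a description. The highest was Lima1 (an actin-binding protein), with 221 reads in the Dicer KO against 439 in the Dicer KO/Dnmt1 cKO, a level of 0.326 to 0.532 and a log2 change of 0.70 (0.47 to 0.94). Sfswap (a regulator of splicing) followed with 243 and 456 reads and 0.62 (0.40 to 0.85), and Rnf157 (a ubiquitin ligase) with 198 and 368 reads and 0.61 (0.36 to 0.87). Eif2c2 (Argonaute 2) was the fourth, with 337 and 623 reads over chr15:72932055-73015377, a level of 0.580 to 0.880 and a log2 change of 0.60 (0.41 to 0.80). Arhgap40, Tmem67 (a ciliary membrane protein), Chst10 (a sulfotransferase), Aldh18a1 (an enzyme of proline synthesis), Cxadr (the coxsackie and adenovirus receptor) and Tbc1d15 (a GTPase-activating protein) differed by 0.55 to 0.60. All 10 stood below the autosomal mean in the Dicer KO, at levels of 0.326 to 0.771. The ranking itself favours this, since the change is a ratio over the same Dicer KO reads. GC content alone gave −0.012 to 0.10 for them. H3K27me3 was also higher by 0.84 over Tbc1d15, 0.66 over Aldh18a1, 0.55 over Eif2c2 and 0.35 over Lima1, and differed by −0.055 to 0.12 over the other 6.

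At the other end, Il1rl1 went from 278 to 264 reads (level 1.12 to 0.870), a log2 change of −0.36 (−0.61 to −0.11). Slc13a5 (a citrate transporter) had 282 and 274 reads and −0.33 (−0.57 to −0.082), Cd53 had 290 and 282 reads and −0.33 (−0.57 to −0.084), and Adamts10 (a secreted metalloprotease) had 274 and 270 reads and −0.31 (−0.55 to −0.059). These 4 had levels of 1.12 to 1.70 in the Dicer KO, above the autosomal mean, which the ranking likewise favours. 4 of the 10 lowest, Gm10800, Gm10106, Gm11168 and Gm10719, are short annotated genes on chromosomes 2 and 9 whose single tile stood at a level of 20.8 or more in the Dicer KO. They differed by −0.34 to −0.31 in H3K9me2 and by 0.46 to 0.59 in H3K27me3. 4930449A18Rik and Spink5 (a protease inhibitor of the skin) differed by −0.34 each. Near-identical copies of repeated DNA cannot be told apart by reads, so these 4 are uncertain as genes.

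Among whole windows, both ends of the range had levels below the autosomal mean. The highest was chr11:94800001-94900000, with Col1a1 (a chain of type I collagen), Sgca, Ppp1r9b and Pdk2, where 300 reads became 607, a log2 change of 0.73 (0.53 to 0.94) at a GC content of 52.3%. The window chr5:115600001-115700000 (Mlec, Cabp1, Pop5, Rnf10) went from 203 to 390 reads, chr4:133100001-133200000 (Nudc, Sfn, Gpn2) from 236 to 449, chr4:135700001-135800000 (Id3, E2f2, Asap3) from 201 to 377 and chr3:102900001-103000000 (Ampd1, Bcas2) from 251 to 466. All 5 held protein-coding genes, differed by 0.61 to 0.73 and stood at levels of 0.291 to 0.434 in the Dicer KO. As for the genes, a ranking on the change favours low levels in that library. The 5 lowest differed by −0.46 to −0.36 and were also poor in H3K9me2, at levels of 0.171 to 0.617, unlike the 4 genes above and unlike most windows of such low levels. They included the window of Mup1 and Mup10 (major urinary proteins) on chromosome 4, with 125 and 111 reads, that of Zscan4b on chromosome 7, with 137 and 130 reads, and a pair on chromosome 12 without a protein-coding gene, of which the lower had 116 and 103 reads. The window of Unc93a on chromosome 17, with 427 and 383 reads, differed by −0.44 (−0.64 to −0.24). Other than that of Unc93a, these windows held only 103 to 137 H3K9me2 reads per library. They were as poor in the other marks, at levels of 0.104 to 0.192 for H3K27me3 and 0.186 to 0.419 for H3K9me3. H3K9me3 differed by −0.44 (Mup1 and Mup10) to −0.021 over them. Whether reads with low mapping quality were lost there was not tested, so their values are uncertain.

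The machinery of H3K9 and DNA methylation and of RNAi was read as lists written from general knowledge. These lists were chosen with earlier results of these data known, so their counts are a description. All are described by counts, to be read beside all tested genes, of which 70.3% were higher and 0.994% at least 1.5-fold higher, with a median of 0.094. The tested genes of these lists had median levels of 0.612 to 0.687 in the Dicer KO, against 0.855 for all tested genes. Of genes of 30 to 100 kb, at a median level of 0.717, 3593 of 4643 were higher, with a median of 0.13. Of the H3K9me2 writers and partners, 7 of 10 had enough reads, 5 of them were higher, about the share of all genes. Their median was 0.20, and the change summed over the list was 0.081 (0.022 to 0.14). Ehmt1 (GLP) went from 591 to 827 reads, a log2 change of 0.20 (0.045 to 0.35), while Cdyl, a reader that recruits G9a, had 1572 and 1901 reads and −0.011. Ehmt2 (G9a) held only 23 and 43 reads. Of 9 H3K9 demethylases 8 were higher, against 70.3% of all tested genes, and the summed change was 0.15 (0.082 to 0.22) for H3K9me2 and 0.29 for H3K27me3. Phf2 went from 315 to 507 reads, a log2 change of 0.40 (0.20 to 0.61), and Kdm4d, the lower one, differed by −0.21 (−0.43 to 0.0055). All 9 tested genes of the DNA methylation list were higher, with a median of 0.28. Dnmt1 itself, the gene deleted by Cre, held 107 and 194 reads, a log2 change of 0.57 (0.23 to 0.93), and Tet1, which oxidises methylated cytosine, went from 305 to 500 reads, 0.43 (0.22 to 0.64). Tiles of 2 kb in a histone ChIP do not check the deletion of the floxed exons.

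In the RNAi list 7 of 8 tested genes were higher, against 70.3% of all tested genes, and the median was 0.24. The summed change was 0.24 (0.16 to 0.32) for H3K9me2 and as large, 0.28, for H3K27me3. Dicer1, the gene deleted in both groups, went from 307 to 443 reads, a log2 change of 0.24 (0.031 to 0.46), and Dgcr8, the partner of Drosha, from 102 to 174 reads, 0.49 (0.12 to 0.85). Of the Argonautes, Eif2c2 is given above as 1 of the 94 genes at least 1.5-fold higher, Eif2c4 differed by 0.37 (0.14 to 0.61) and Eif2c1 by 0.17 (−0.15 to 0.50). Eif2c3 went from 466 to 494 reads and was lower, by −0.20 (−0.39 to −0.015). H3K9me2 does not measure expression, and the level of these transcripts is not part of these values.

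Pluripotency genes are short and stood at low levels in both libraries, so all but 1 of 13 held too few reads. Esrrb (an orphan nuclear receptor), the exception, went from 817 to 1165 reads, a log2 change of 0.23 (0.096 to 0.36). Pou5f1 and Nanog had 17 and 19 reads each, at levels of 0.410 and 0.376, and Sox2 had 0 and 1. Sox2 at 0 reads of 16323401 allows up to 3 reads there. The mark does not measure expression, so the label ESC was not checked from these genes. Of germline genes known to be silenced by methylation, 5 of 8 tested were higher, with a median of 0.019, below the 0.094 of all genes. Ddx4 (the helicase Vasa) went from 344 to 533 reads, 0.35 (0.15 to 0.55), and Tdrd1 from 313 to 447, 0.23 (0.017 to 0.44). Mael had 302 and 326 reads and −0.17 (−0.41 to 0.056), and Sycp1, Stk31, Brdt, Asz1 and Hormad1 differed by −0.040 to 0.044 with intervals that held 0. Of the lineage factors 4 of 5 were higher, near the 70.3% of all tested genes, with Gata4 at 0.20 (−0.0028 to 0.40) and Gata6 at −0.17 (−0.43 to 0.085).

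Very long genes, most of them of neurons and some at known fragile sites, were at the opposite side. Park2, also in this list, spans only 100572 bases in the annotation used. Of 18 genes 15 were lower, 13 of them with an interval below 0. Such an interval was found for 4.42% of all tested genes and for 160 of the 503 genes of at least 300 kb. Long genes hold more reads, which narrows the interval. The sum of the list went from 197874 to 232507 reads, a log2 change of −0.053 (−0.061 to −0.044). Csmd1 (1643050 bases) went from 13348 to 15195 reads, a level of 1.19 to 1.11 and a log2 change of −0.098 (−0.13 to −0.065). Cdh13 differed by −0.092 (−0.13 to −0.050), Lrp1b by −0.081 (−0.11 to −0.050) and Ptprd by −0.061 (−0.091 to −0.032).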

How the data were processed

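H3K9me2 ChIP-seq (antibody ab1220, cross-linked ESCs) was taken from a table of log2 values per tile of 2 kb. The authors used Trim Galore for trimming and Bowtie2 for mapping to NCBIM37, kept MAPQ of 20 or more, and deposited the log2 of observed over expected reads (their methods name tiles of 1 kb). Antilogs were whole multiples of 1 read within a tolerance of 0.1 read for all H3K9me2 values, so read numbers were recovered, with tiles without reads listed at 0.9 of a read. The printed tiles are free of exons and off chromosome 18. No input library was used here, and 19 columns that match no sample given were not used. Chromosome lengths equal those of the NCBIM37 reference, and genes are GENCODE vM1.

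Changes are log2 ratios of shares of autosomal reads with exact binomial 95% counting intervals (scipy 1.17.1, numpy 2.4.6, pandas 2.3.3). Differences use a normal approximation. The functions were tested on simulated reads. Genes take tiles they overlap by at least 1 kb. Named genes are the 10 highest and 10 lowest with at least 500 reads, the 5 highest and 5 lowest windows with at least 200 reads, lists of known genes and families by symbol start. Members and lists were chosen with earlier results of these data known. Alternatives were other scalings, window lengths, rankings, tile filters and a GC correction in 50 bins.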

Additional observations from a re-analysis of the deposited data

How the results depend on the processing

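No paired analysis was possible because there was a single library for either genotype. Scaling to a median log2 ratio of 0 or by a trimmed mean changed the share of windows at least 1.2-fold apart to 5.76% and 5.63%. That share was 9.85% in windows of 50 kb, 3.58% in windows of 200 kb and 3.60% after GC correction. High minus low domains gave −0.24 with windows of 50 kb, −0.20 with 200 kb, −0.25 and −0.19 with domains ranked on the library without or with Dnmt1 deletion alone, and −0.24 without the low domains poor in all 6 libraries. Without the 0.1% of tiles with most reads, the highest minus lowest autosome was 0.052, and genes of at least 300 kb minus those under 10 kb reversed to −0.12, because tiles such as that of Gm10800 leave the short genes. With tiles of a mean of at least 10 reads, domains gave −0.19, autosomes 0.052, distal minus proximal ends 0.020, gene bodies minus intergenic tiles 0.049, long minus short genes 0.098, and highest minus lowest GC 0.11. After GC correction, domains gave −0.19, autosomes 0.040, distal minus proximal ends 0.0047 and gene bodies minus intergenic tiles 0.048. The cause of these moves was not tested. Apart from the reversed one, these differences kept their direction. Of the 20 named genes, only Gm10800 moved beyond its interval, after GC correction, to −0.26.

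With 1 library a side, differences between cultures, antibody pull-downs and library preparations cannot be told apart from Dnmt1 deletion.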

Other observations

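H3K9me2 was also read in tiles chosen by the other marks. The 1% of covered tiles with most H3K9me3 differed by −0.18 in H3K9me2 over all tiles and by −0.067 (−0.078 to −0.056) without the 0.1% of tiles with most reads, and were lower on 19 of 19 autosomes. The 1% with most H3K27me3 differed by −0.098 over all tiles and by 0.11 (0.096 to 0.12) without the 0.1% of tiles, so its direction rests on them. It was above 0 on 14 of 19 autosomes.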
